A study of Arabidopsis thaliana with 2 samples.

Results

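Carriers of the mitochondrial substrate carrier family and components of mitochondrial protein import were followed in polysomes of cultured Arabidopsis thaliana cells. The members are the nuclear loci whose description on the array holds any of several phrases and does not name the chloroplast. The phrases name a mitochondrial substrate carrier, an ADP/ATP or dicarboxylate carrier or an uncoupling protein. Others name mitochondrial import, a translocase of the inner or outer membrane, or the Tim17/Tim22/Tim23 family. Descriptions worded translocase inner membrane or translocase outer membrane, without the word of, were not reached, so several TIM and TOM genes are no members. The wording uses no measured value, though it was drawn up with earlier results of these data known. This gave 66 genes out of 25465 with a probe, and 64 of the 66 carried signal on both days. They comprised 44 carriers, 21 import components and GUN1, which was taken only because its name, genomes uncoupled 1, holds the searched word. The 21 were counted by family and not by location, so they include the HP and OEP16 proteins, some of which are known from plastids. GUN1 is a pentatricopeptide repeat protein of plastid-to-nucleus signalling, and it is given apart.

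The cells were the T87 suspension line, grown in modified LS medium under a daily light and dark period and passed to fresh medium every week. One group was collected at day 1 and the other at day 8 after inoculation, with no other treatment. Each day was 1 array with 2 channels from 1 biological replicate. Fractions 1 to 3 of a sucrose gradient of 8 fractions were the polysomal pool, and all fractions together were the total pool. The polysome ratio is the polysomal over the total signal of a gene, and is given as a percent. The labels are not of a piece. They describe the Cy5 channel as polysomal, name the Cy3 channel after fractions 1 to 3, and call the second pool nonpolysomal where the spike-in RNAs are described. The direction was taken from the name polysome ratio in the sample titles, and 10 small nucleolar RNA genes, which are not translated, had the median ratios 3.63% (day 1) and 2.23% (day 8). Were the second pool nonpolysomal, each percent would compare polysomal mRNA with the remainder of that gene's mRNA. Above 100% lay 75 genes on day 1 and 36 on day 8, and no member.

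Mitochondrial carriers are small membrane proteins that exchange nucleotides, organic acids, amino acids and cofactors across the inner membrane, and relatives of them sit in plastids, peroxisomes and the plasma membrane. Nearly all mitochondrial proteins are made on cytosolic ribosomes and enter through the TOM complex of the outer membrane. From there the TIM23 complex takes proteins with a presequence across the inner membrane, while small TIM chaperones hand carriers to the TIM22 complex. The ratio reports how an mRNA was spread over the gradient and not how much of it was present, so the makeup of the culture could not be checked from it.

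Most members had a lower ratio on day 8 than on day 1. Their median was 35.0% on day 1 (quartiles 30.8% and 38.2%) and 18.2% on day 8 (quartiles 13.0% and 25.6%). Over all 19741 genes with signal the medians were 36.0% and 24.3%. The carriers and import parts thus lay near the middle of all genes in young cultures and lower in the order in old ones, where 44 of the 64 were below the median gene, against 37 on day 1.

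As deposited, 61 of the 64 were lower on day 8 and 2 were higher, while SAMTL had the same value on both days. The share of all genes that was lower was 81.4%. At least 2-fold lower were 26 members, against 25.6% of all genes, and none was at least 2-fold higher, against 1.21% of all genes. The position of 0 is not certain, since 10 spike-in probes had a median change of -0.30 on the log2 scale (range -0.59 to 0.73). With 0 at that median, 52 members were lower, against 63.7% of all genes, and 12 were higher. Relative to the median gene, whose change was -0.52, the median member lay at -0.24. At least 2-fold lower than the median gene's change were 12 members (10.8% of all genes were), and HP30 alone was at least 2-fold higher (4.42% of all genes were).

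Every member rests on 1 probe, and there are no replicates, so no test was made and each difference describes these 2 arrays, in which day and array cannot be told apart. As a measure of error within an array, 556 genes with several probes had a median SD between probes of 0.14 for the day 1 ratio, 0.33 for the day 8 ratio and 0.29 for their difference, on the log2 scale.

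**Figure D1:**
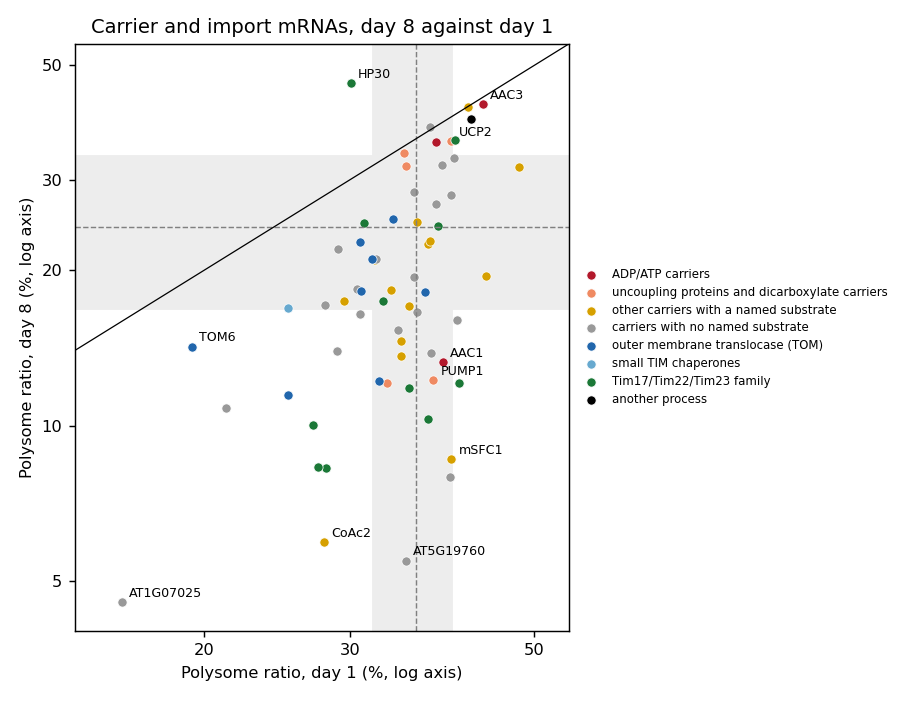
Polysome ratio of 64 members on day 1 (x axis, percent, log axis) and day 8 (y axis, percent, log axis), 1 point per gene, coloured by role. The solid line marks equal ratios, the dashed lines the medians over all genes (36.0% and 24.3%) and the grey bands their quartiles. Most points lie below the line, and HP30 lies clearly above it.

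The ADP/ATP carriers exchange the ATP made in the matrix for ADP from the cytosol. On day 1 their ratios lay close together, at 38.8% for AAC1, 38.1% for AAC2 and 43.4% for AAC3. On day 8 AAC1 was at 13.3%, while AAC2 was at 35.6% and AAC3 at 42.1%. The changes were -1.55, -0.10 and -0.04 on the log2 scale. AAC1 thus stood apart from both other genes of its family on day 8 by more than the spread between probes of a gene.

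The uncoupling proteins and dicarboxylate carriers form one branch of the family. Uncoupling proteins let the proton gradient run down without making ATP, and dicarboxylate carriers exchange malate and related acids. Plant uncoupling mitochondrial protein PUMP1 had a ratio of 37.8% on day 1 and 12.2% on day 8. UCP3 was close to it, with 33.3% and 12.1%. UCP2 had 39.7% and 35.6%. The dicarboxylate carriers UCP5 (also named DIC1), with 35.0% and 31.8%, and DIC2, with 34.8% and 33.8%, were near their day 1 level, as UCP2 was. Of the genes placed in this branch by name, 2 thus had changes of -1.62 and -1.46. The 3 others with signal on both days lay between -0.16 and -0.04, with no gene in between. Carriers that are not named after a substrate were not sorted by branch, so this split holds only for the genes given here. The third dicarboxylate carrier, DIC3, was without signal on day 1, where its value of 53.1% matched the local value of empty features, and its day 8 ratio was 7.74%.

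Among 14 other carriers with a named substrate, the day 1 median was 35.7% and the day 8 median 18.9%, and 13 of them lay below the median gene in their change. The coenzyme A carrier CoAc2 was lowest, with 27.9% on day 1 and 5.94% on day 8 (change -2.23). Its relative CoAc1 had 29.5% and 17.4%, so the pair was alike on day 1 and differed by 1.47 in the change. The succinate-fumarate carrier mSFC1, which links organic acid pools of cytosol and matrix, had 39.7% and 8.61%. On day 1 it was above 74.6% of all genes, and on day 8 above 4.79%. Both basic amino acid carriers, which move arginine and related amino acids, were lower in like measure. MBAC1 had 34.5% and 13.7%, and BAC2 had 34.6% and 14.6%. BOU, a carrier linked to photorespiration and glutamate, had 43.8% and 19.5%.

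The ATP/phosphate carriers APC1, APC2 and APC3 exchange ATP for phosphate under control of calcium. Their ratios were 37.2%, 32.1% and 33.7% on day 1, and 22.5%, 20.9% and 18.3% on day 8. The changes (-0.72, -0.62 and -0.88) differed by less than the spread between probes. SAMTL, named after its likeness to S-adenosylmethionine transporters, had 41.6% on both days, the highest change of the 14.

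Several carriers of this group work outside mitochondria. SHS1, the plastid adenylate carrier also named BRITTLE 1, had 37.4% on day 1 and 22.8% on day 8. The chloroplast member Mfl1, named after mitoferrins, which carry iron, had the highest day 1 ratio of all members with signal, 47.9%, and 31.7% on day 8. PXN, the NAD carrier of peroxisomes, had 35.3% and 17.1%, and PM-ANT, an adenine nucleotide carrier of the plasma membrane, had 36.1% and 24.9%. The changes of these 4 genes ran from -1.05 to -0.54. A decrease was also seen in 81.4% of all genes, so it does not mark these 4 out. The member carriers with signal ranged from -2.68 to 0.02, which is too wide for a place within that range to show likeness to the carriers of mitochondria.

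For 21 carriers the array description and the RefSeq symbol name no substrate, which does not mean that their substrates are unknown. CoAc1 and CoAc2, whose description and RefSeq symbol name none either, were counted with the named carriers. The 21 had medians of 35.8% at the start and 17.1% at day 8, and 14 of 21 lay below the median gene in their change. AT5G19760 had 35.0% on day 1 and 5.47% on day 8. Its change of -2.68 was the lowest of all members with signal on both days. AT2G30160 had 39.5% and 7.94%. AT1G07025, which lies next to AT1G07030 in the RefSeq annotation with a span of 501 bp, had the lowest ratio of all members on both days, 15.9% and 4.55%. Its neighbour AT1G07030, of the same family, had 34.3% and 15.3%. AT1G74240, with 37.5% and 13.8%, and AT3G51870, with 40.4% and 16.0%, complete the lower end. AT4G15010, with 35.8% and 19.5%, was at the median of the set.

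At the upper end, AT4G11440 had 37.4% on day 1 and 38.0% on day 8, the only carrier with a higher value on day 8. AT5G64970 had 40.0% and 33.0%, AT5G15640 38.7% and 32.0%, AT1G72820 35.8% and 28.4%, and AT2G26360 29.0% and 22.0%.

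**Figure D2:**
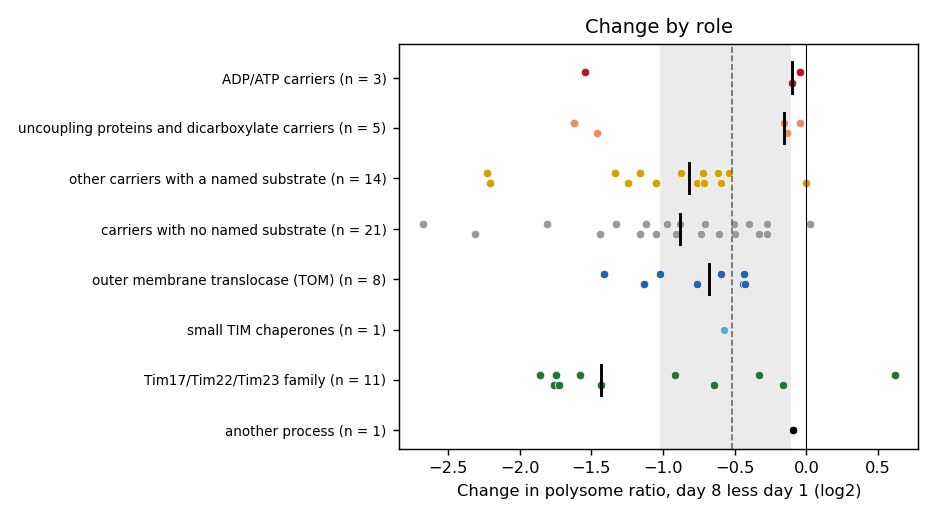
Change in polysome ratio from day 1 to day 8 (x axis, log2) for the 64 members by role, 1 point per gene, with a short black bar at the median of each role of more than 1 gene. The grey band and the dashed line are the quartiles and the median (-0.52) over all genes. The Tim17/Tim22/Tim23 family has the lowest median (-1.43).

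The TOM complex forms the entry gate of the outer membrane. Its 8 members had a median ratio of 31.4% on day 1, where 7 of 8 lay below the median gene, and 18.2% on day 8. TOM40, the channel itself, had 36.9% on day 1 and 18.2% on day 8. The receptors TOM20-3 (33.8% and 25.2%) and TOM20-4 (30.8% and 22.8%), which recognise presequences, had the smallest changes, -0.43 and -0.44. They did not stand apart, since the change of TOM6 was -0.45. TOM22-I had 31.9% and 21.1%, and TOM22-V had 30.9% and 18.2%, so both pairs were alike in their change.

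Of the small subunits around the channel, TOM6 and TOM5 were the lowest of the complex on day 1. TOM6 had 19.4% on day 1, above only 4.31% of all genes, and 14.2% on day 8. A further probe on the array, built from a transcript contig annotated as TOM6 and not assigned to a locus, had 22.8% and 20.7%. TOM5 had 25.2% and 11.5%. TOM7-2 had 32.5% and 12.2%, the largest change of the complex (-1.42). TIM13, a small chaperone of the intermembrane space and the only one among the members, had 25.2% and 16.9%.

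Members of the Tim17/Tim22/Tim23 family, which holds the channels of the inner membrane and related proteins of plastids, ranged from -1.86 to 0.62 in their change. Over 11 genes with signal the median was 32.9% in young and 12.1% in old cultures, and 6 were at least 2-fold lower, against 25.6% of all genes. TIM23-1, the channel for presequence proteins, had 37.2% and 10.3%. AT5G51150 had 40.6% and 12.1%, and OEP16-3 had 35.3% and 11.8%. The remaining 3 of these 6 were also low on day 1. AT3G25120 had 28.1% and 8.28%, ATOEP16-4 had 27.4% and 8.30%, and AT1G18320 had 27.0% and 10.0%. The changes of these 6 ran from -1.86 to -1.43.

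The other 5 ran from -0.92 to 0.62, and 4 of them are the HP proteins known from the chloroplast envelope. HP20 had 32.9% and 17.4%, and HP22 had 38.3% and 24.4%. HP30-2 had 40.2% and 35.9%, while HP30 had 30.1% on day 1 and 46.1% on day 8. HP30 was above 18.2% of all genes on day 1 and above 93.5% on day 8. Among the members counted as import components it alone had a higher ratio on day 8. AT5G63000, with 31.2% and 24.8%, was the fifth. ATOEP16-2 had signal only on day 1, with 32.1%, and its day 8 value of 25.2% matched that of empty features. GUN1, the gene taken by its name alone, had 42.0% and 39.4%.

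On day 8 the level of the negative controls, with a median of 25.1%, lay in the middle of the genes. The controls had a median of 53.8% on day 1, so the empty level itself changed by -1.10 on the log2 scale. The median member changed by -0.76 and the median gene by -0.52. How far the shift of the empty level bears on the changes of the members was not tested. Besides ATOEP16-2, the members HP22, AT5G63000, AT3G53940, PM-ANT and TOM20-3 lay within 0.02 of the local empty level on the log10 scale on day 8, so their day 8 ratios may stand partly for missing signal, which was not tested. AT3G53940 had 38.0% on day 1 and 26.9% on day 8.

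**Figure D3:**
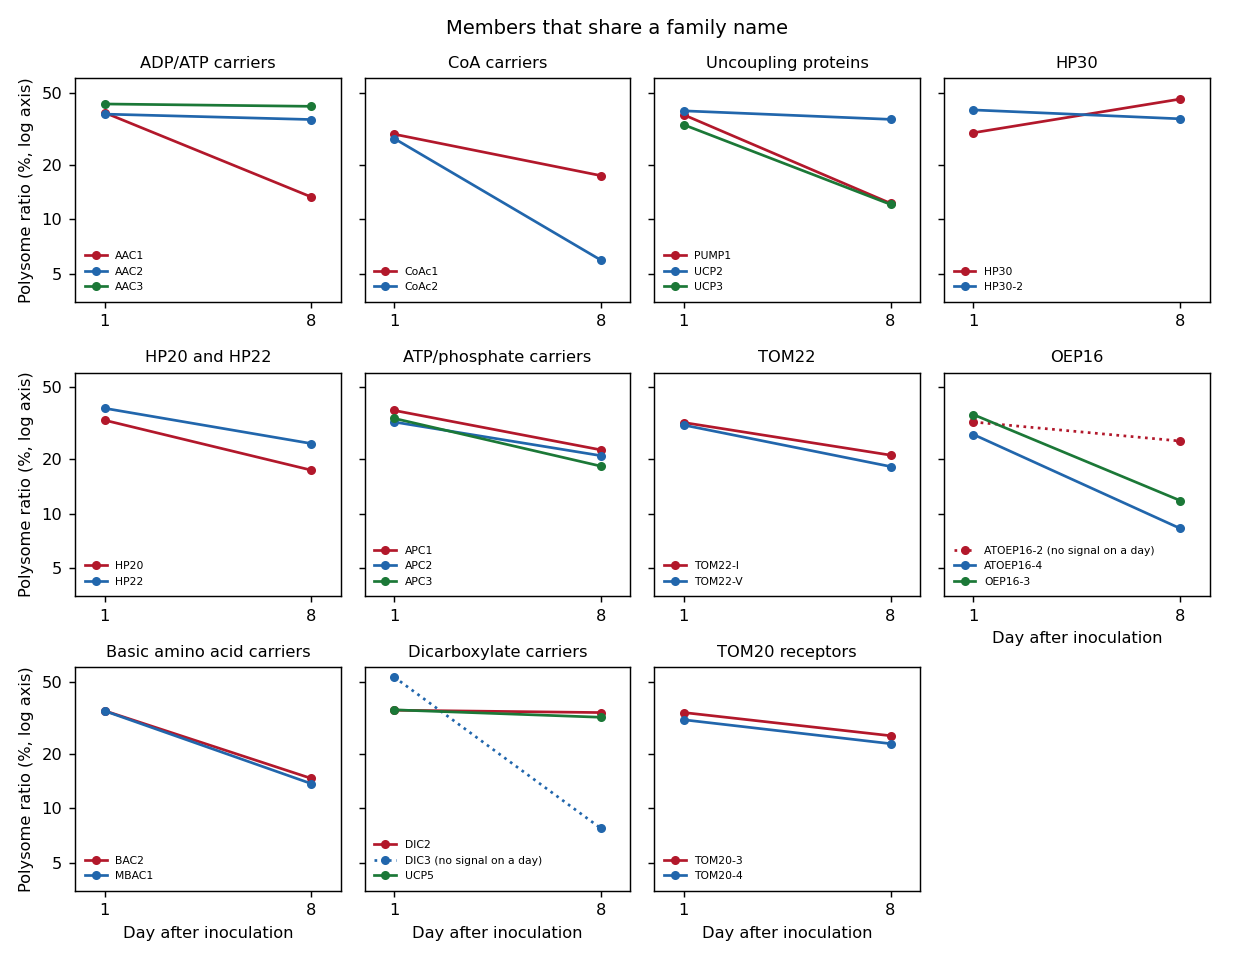
Polysome ratio (y axis, percent, log axis) on day 1 and day 8 (x axis) for members that share a family name, 1 line per gene; dotted lines mark genes without signal on a day. ADP/ATP carriers, CoA carriers and uncoupling proteins lay close together on the day 1 array and further apart on the day 8 array.

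Of 11 sets of members with a shared family name, 3 spread by more than 1 on the log2 scale in their change: the ADP/ATP carriers (1.50), the CoA carriers (1.47) and the uncoupling proteins (1.47). These same sets had differed by 0.19, 0.08 and 0.26 on day 1. HP30 and HP30-2 differed by 0.78. The other 7 sets, among them the basic amino acid carriers (0.09), the TOM20 receptors (0.01) and the APC carriers (0.26), differed by less than the median SD between probes of a gene. In 2 of these 7, OEP16 and the dicarboxylate carriers, only 2 of 3 genes could be compared. The TOM20 set holds only the 2 receptors that the wording reached. Outside it, TOM20-1 had a change of -0.86 and TOM20-2 of 0.16, so the receptors as a whole were not alike. Probes of close relatives can share target sequence, and how far they did was not tested.

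Genes with similar functions that the wording did not reach gave further values. All 3 other small TIM chaperones lay slightly above TIM13 (25.2%) on day 1, with 27.0% for TIM8, 26.9% for TIM9 and 25.4% for TIM10. On day 8 they had 9.89%, 15.4% and 10.5%. TIM23-2 (39.6% and 14.3%) and TIM23-3 (34.0% and 10.8%) lay near TIM23-1. TIM17-2, the partner of TIM23 in the channel, had 34.7% and 7.64%, while TIM17-1 had 38.9% and 24.7% and TIM17-3 had 33.4% and 15.4%. The motor and receptor parts of the same translocase had higher day 8 ratios than these channel parts. TIM44-1, which tethers the import motor, had 49.8% and 64.0%, TIM44-2 had 37.4% and 36.5%, and TIM50 had 37.8% and 31.2%.

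**Figure D4:**
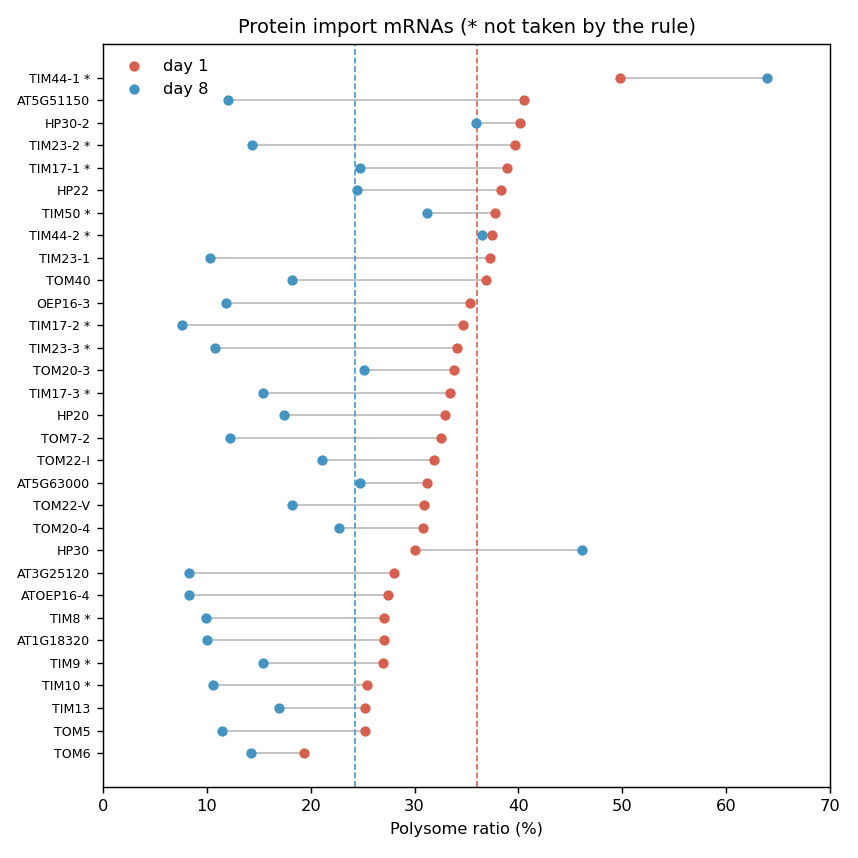
Polysome ratio (x axis, percent) of 31 import genes on day 1 (red) and day 8 (blue), ordered by day 1; the dashed lines are the medians of all genes on each day (36.0% and 24.3%), and an asterisk marks genes that the wording did not reach. TOM6, TOM5 and the small TIM chaperones are at the lower end on day 1, and HP30 and TIM44-1 are the only genes with a higher ratio on day 8.

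The steps before and after the translocases were also measured. Porins, the pores of the outer membrane for metabolites, numbered 4, with a median of 36.4% on day 1 against 18.0% at day 8, and ran in the order of their change from VDAC4 (34.9% and 14.7%) to VDAC2 (39.7% and 33.0%). The processing peptidase, which cuts off presequences in the matrix, had 39.9% and 20.9% for MPPalpha and 40.6% and 33.8% for MPPBETA. AT1G51980, listed as a further alpha subunit, had 41.2% and 20.5%. Of 10 further receptor, sorting and assembly parts with signal, 9 were lower on day 8, near the 81.4% of all genes. TOM20-2 was higher (35.0% and 39.1%). MIA40, the oxidoreductase of the intermembrane space, had 29.4% and 9.42%.

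Matrix chaperones pull in and fold imported proteins. Their day 1 median was 36.8% and their day 8 median 32.4%, and 6 of 7 lay above the median gene in their change. The import motor proteins mtHsc70-1 (42.1% and 50.0%) and MTHSC70-2 (30.3% and 55.5%) were higher on day 8, as was the chaperonin HSP60-2 (37.2% and 40.6%), whereas HSP60 had 33.9% and 14.7%.

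Carriers outside the wording numbered 14, with medians of 34.6% and 15.8% on the respective days, against 35.8% and 18.4% for the 43 member carriers with signal. The phosphate carriers of mitochondria PHT3;1 (40.3% and 48.2%) and PHT3;3 (25.8% and 32.3%) were the 2 with a higher ratio on day 8. The S-adenosylmethionine carrier SAMC1 (37.5% and 8.71%) and the folate carrier FOLT1 (28.3% and 6.43%) were at the other end.

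Other nuclear genes of mitochondria gave a scale for the members, with the respiratory chain below them and the tricarboxylic acid cycle above. The median change was -0.76 for the 64 members, -0.98 for 53 subunits of the respiratory chain and -0.11 for 19 enzymes of the cycle. At least 2-fold lower were 40.6% of the members, 49.1% of the subunits and 10.5% of the enzymes. The cycle enzymes had medians of 38.4% in young and 38.6% in old cultures. With 1 array per day, these differences between sets have no test.

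**Figure D5:**
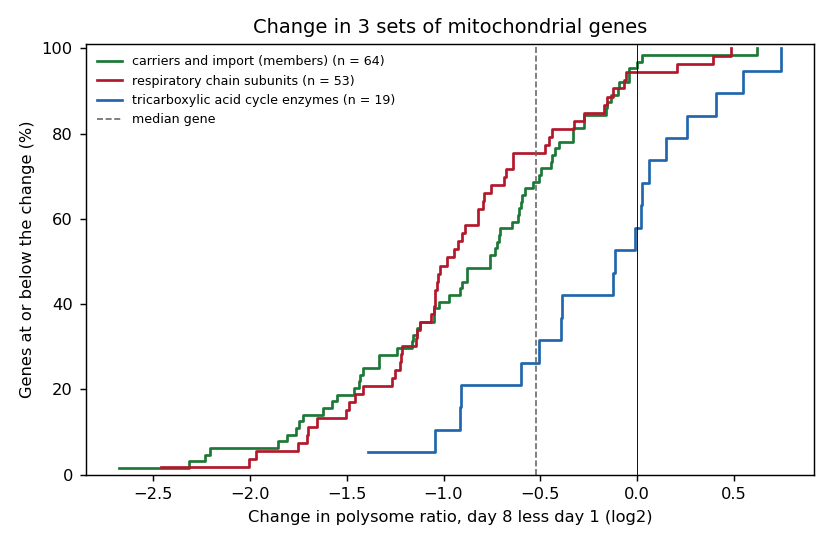
Share of genes (y axis, percent) at or below a given change in polysome ratio from day 1 to day 8 (x axis, log2) for the members and for 2 other sets of nuclear genes of mitochondria. The respiratory chain curve (median -0.98) lies closest to that of the members (-0.76), and that of the tricarboxylic acid cycle enzymes lies to the right (median -0.11).

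The spread among members was wider on day 8 than on day 1, as it was for genes at large. The median SD between probes of a gene was also larger on day 8 (0.33 against 0.14), and age and array cannot be told apart. The interquartile range of the log2 ratio was 0.31 on day 1 and 0.98 on day 8 for the members, and 0.32 and 0.99 for all genes. On day 1, 5 members were among the lowest 10% of all genes: AT1G07025, TOM6, AT3G21390 (21.3% and 10.8%), TOM5 and TIM13. On day 8 there were 10. Among the highest 10% were Mfl1 on day 1, and HP30 and AAC3 on day 8. AT3G21390 was singled out after its values were seen. The length of the gene in the RefSeq annotation, which includes introns, was related to the day 1 ratio with a Spearman rho of 0.53 across 20 import components, -0.06 across 43 carriers and 0.13 across 19416 protein-coding genes. For the day 8 ratio the rho was 0.10, 0.07 and 0.39 in the same order, and for the change it was -0.04, 0.12 and 0.36. These are descriptions across genes of the same array, which are not independent samples.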

How the data were processed

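The authors deposited log10 polysome ratios for 39102 features of 1 array per day, made from the scanner signals by steps that are not given in the sources used here. Both deposited tables held the same values (largest difference 0), and 0 columns of per-sample values were left unused. The base was settled from the spacing of the spike-in probes, which is that of the mixing ratios of the kit on a log10 scale. Values were converted to log2 and percent with Python 3.11.15, pandas 2.3.3 and scipy 1.17.1.

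A feature was taken as without signal within 0.006 (log10) of the local level, the median of its 30 nearest features lying within 0.04 of the negative-control median. By this rule 25.4% (day 1) and 26.6% (day 8) of the gene probes were left out, with 93.5% and 95.6% of 757 negative controls. The rule was tried on simulated arrays in which empty features were set to scatter well within the cut-off. That trial does not measure its error on the arrays used here. For all other genes, log values were averaged over probes.

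RefSeq names (assembly TAIR10.1) were found for all 66 members. In roles of more than 8 genes, the 5 at each end, the one nearest the median and those past 2-fold relative to the median gene are named; smaller roles are named whole, and AT1G07030, AT3G21390, AT3G53940, APC1, CoAc1, PXN and the genes that are no members were added after their values were seen. A planned comparison by protein identity was not made. Members, lists and rules were chosen with earlier results of these data known, and the lists of carriers and import parts outside the wording and of the cycle enzymes after the files were seen. No dye swap was made, so dye bias was not tested.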

Additional observations from a re-analysis of the deposited data

How the results depend on the processing

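No paired analysis was possible because each day has 1 array. Of 58 recomputed values, 57 kept direction and stayed within the spread between probes, or within 1.5 times for counts. The exception was the median change of the members with 0 at the median spike-in change, which was -0.46 against -0.76 as deposited; by that construction every gene shifts alike, and 18 members in place of 26 were then at least 2-fold lower, against 15.9% of all genes in place of 25.6%. With all features kept, the median member lay at -0.09 relative to the median gene, which had itself moved to -0.67. Carriers were then at -0.15 and import components at -0.09, against -0.24 and -0.32 in the main processing. The spread between probes, 0.29 for the change, is larger than the members' offset of -0.24. Staying within it thus does not show that this offset is stable. With a tolerance of 0.012 for features without signal, 62 members were left, at -0.30. Using the first probe of a gene, leaving out GUN1 or leaving out genes above 100% kept the median at -0.24. These settings could hardly move it, since every member has 1 probe, none lies above 100% and GUN1 is a single gene. Signal over background was not analysed here, so how far dim members limit the day 8 values is unknown.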
